A study of Mus musculus with 6 samples.

Results

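Chemokine and chemoattractant receptors are G protein-coupled receptors that let leukocytes sense a gradient of an attractant and move along it. The 9 genes described here were chosen by symbol, out of 45193 genes in the count table. They are the CC chemokine receptor genes Ccr1 and Ccr2, the CX3C receptor gene Cx3cr1, the CXC receptor genes Cxcr4 and Cxcr2, the atypical receptor gene Ccrl2, the formyl peptide receptor genes Fpr1 and Fpr2, and Ptafr, which encodes the receptor of the lipid platelet-activating factor. All 9 matched 1 Ensembl row each, and all 9 were among the 12011 genes that could be tested. In every library each of them lay above the level of the low-count filter, 0.621 CPM (counts scaled to a common library size), so none was tested only because it was high in 1 genotype.

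RNA was sequenced from cultured bone marrow-derived macrophages of 2 genotypes on the C57BL/6J background, with 3 libraries each. The first group was labelled WT. The second, RXRKO, carried the genotype RXRafl/flLysMCre RXRb-/-, that is, loxP-flanked alleles of the retinoid X receptor alpha gene with Cre recombinase driven from the lysozyme M locus, and loss of both retinoid X receptor beta alleles. Marrow cells of both groups were grown for 6 days in 20% serum and 30% medium from L929 cells, a source of the growth factor CSF-1. All then stood in serum-free medium and received only the solvent DMSO for 3 hours, so both groups are resting cells. Cre from this locus acts in myeloid cells from the precursor stage on, and no Cre is described for the WT group. Effects of Cre, of the altered lysozyme locus and of receptor loss cannot be told apart in any difference between the groups. The replicates are called biological, but the labels do not tie them to animals, so a p-value here is set against differences among libraries that may be partly technical.

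As background, Ccr2 marks classical monocytes and draws them out of the marrow toward its ligand CCL2, whereas Cx3cr1, the receptor of fractalkine, is the hallmark of patrolling monocytes and of many resident macrophages. Cxcr4 retains leukocytes in the marrow through its ligand CXCL12, and Cxcr2 is the main chemokine receptor of neutrophils. Formyl peptide receptors sense bacterial and mitochondrial peptides. Ptafr senses platelet-activating factor, a phospholipid made and broken down by macrophages themselves.

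Total counts ran from 7880320 to 14957253 in WT and from 17250051 to 25091019 in RXRKO, so every RXRKO library was the deeper. Values are given as CPM, a count relative to the TMM-scaled total of its library, and 1 count equals between 0.0397 and 0.13 CPM. Rxrb fell from 66.7 ± 1.86 to 9.27 ± 2.09 CPM (SD, n = 3) and Lyz2 from 15258 ± 594 to 28.4 ± 6.12 CPM, while Rxra, counted over its whole length, stood at 104 ± 6.7 and 109 ± 4.83 CPM, which does not check the removal of its flanked part. Xist, expressed from the inactive X chromosome of female cells, had 0 counts in every WT library and between 209 and 267 CPM in RXRKO, and the Y-linked gene Ddx3y lay between 101 and 112 CPM in WT and between 49.7 and 55.4 CPM in RXRKO. The part of sex in the differences described here was not tested. The macrophage marker gene Adgre1 stood at 1923 CPM in WT and at 1896 CPM in RXRKO, and Csf1r rose from 2216 ± 141 to 2914 ± 208 CPM. Among 9 macrophage markers 3 rose, 3 fell and 3 missed the threshold, where 9.77% of all tested genes rose and 9.61% fell. The sum of the 9 markers ranged from 7021 to 8003 CPM in WT and from 7685 to 8938 CPM in RXRKO. Cd14 (296 ± 11.2 to 628 ± 34 CPM) and Itgam (687 ± 55.3 to 1081 ± 102 CPM) also rose, and Mrc1 (672 ± 20.6 to 488 ± 25.7 CPM) and Aif1 (106 ± 18.3 to 64.3 ± 10 CPM) fell. Aif1 starts at 35170991 on chromosome 17, near the altered Rxrb locus, which starts at 34031812. The part of this closeness in the Aif1 difference was not tested.

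Of the 9 receptor genes, Ptafr, Cx3cr1 and Cxcr2 rose in RXRKO macrophages, Ccr2 fell, and 5 did not pass the test. The test was edgeR's quasi-likelihood test with Benjamini-Hochberg adjustment over all tested genes and a threshold of 0.05. Among all tested genes 9.77% rose, 9.61% fell and 19.4% changed in either direction. The 9 genes had a median log2 fold change of 0.20, against -0.0048 over all tested genes, and ran from -0.57 for Ccr2 to 1.19 for Cxcr2. The groups did not overlap for 5 of the 9, against 36.9% of all tested genes. RXRKO lay above WT without overlap for 4 of them, against 19% of all tested genes, and below for 1, against 17.9%. Only the Ptafr call held under each of the 16 alternative analyses. The count of genes that rose was 1 without WT replicate 1, without WT replicate 3 or without RXRKO replicate 1, and with DESeq2.

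**Figure D1:**
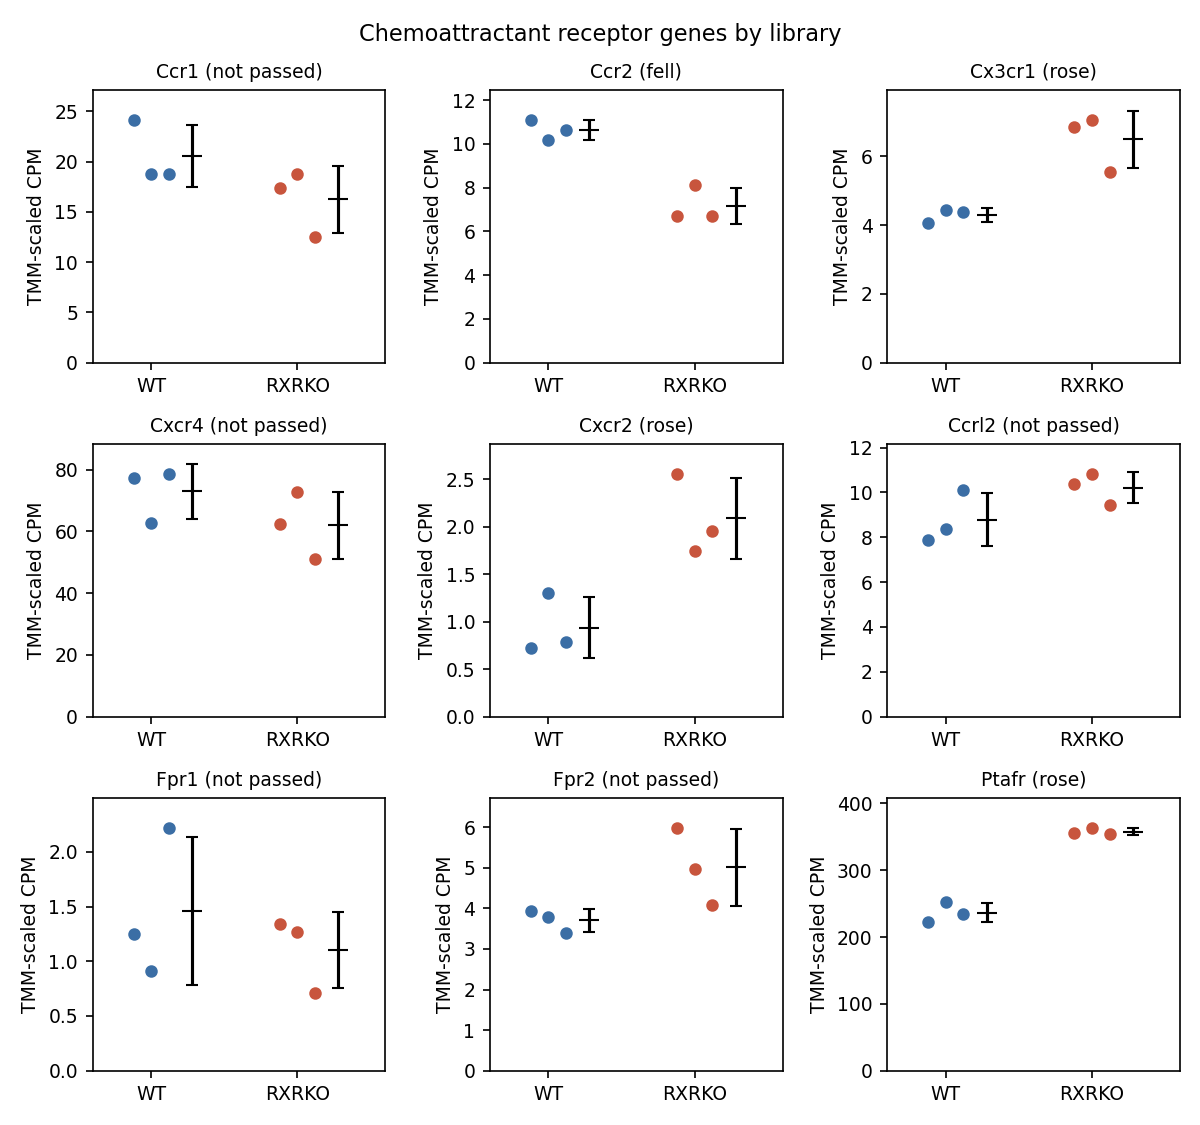
Level of each of the 9 receptor genes in TMM-scaled CPM (vertical axes from 0) in the 3 WT (blue) and 3 RXRKO (red) libraries, 1 point per library, with the mean and SD as black bars and the outcome of the test in each title. Ptafr, Cx3cr1, Cxcr2 and Fpr2 lie higher in every RXRKO library than in any WT library, and Ccr2 lies lower.

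Ptafr gave the clearest difference. Its level was 223, 252 and 235 CPM in WT replicates 1, 2 and 3, and 356, 364 and 354 CPM in RXRKO replicates 1, 2 and 3. Every RXRKO library lay above every WT library, and the 3 RXRKO values were close to each other. The mean rose from 237 ± 14.3 to 358 ± 5.24 CPM (SD, n = 3), a 1.51-fold rise (0.60 on the log2 scale, SE 0.0775, edgeR adjusted p = 0.000173). This rests on 7680 counts in WT and 21796 in RXRKO. The gene (ENSMUSG00000056529) lies on chromosome 4 from 132564067 to 132582683 in GRCm38, on the plus strand. Across the alternatives its log2 fold change ran from 0.55 to 0.64 and its adjusted p did not exceed 0.00342.

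The sequence just upstream of the start of Ptafr is shown because this receptor gene had the firmest call, and that of Cxcr2 because it was the one gene of the 9 whose upstream window held a half-site of the kind nuclear receptors bind. Each is 240 bases of GRCm38.p6 from RefSeq's promoter table, read 5′ to 3′ on the plus strand and ending before the first annotated exon base. Capitals mark the half-site AGGTCA on either strand, which reads TGACCT on the strand shown.
Ptafr, chr4:132563827-132564066: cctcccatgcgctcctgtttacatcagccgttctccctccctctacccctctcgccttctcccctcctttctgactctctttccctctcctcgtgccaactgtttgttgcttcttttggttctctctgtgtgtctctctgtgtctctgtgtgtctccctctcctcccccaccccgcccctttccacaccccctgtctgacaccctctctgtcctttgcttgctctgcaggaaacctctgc
Cxcr2, chr1:74153749-74153988: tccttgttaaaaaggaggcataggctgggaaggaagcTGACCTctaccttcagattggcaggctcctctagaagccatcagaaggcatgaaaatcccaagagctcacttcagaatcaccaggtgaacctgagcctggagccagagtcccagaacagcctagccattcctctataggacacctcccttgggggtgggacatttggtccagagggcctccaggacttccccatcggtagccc

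The half-site AGGTCA, searched on both strands in the 250 bases before each start, was in 14% of 32851 mouse starts in that table. It began 208 bases before the RefSeq start of Cxcr2, and none of the upstream windows of the other 8 genes held these letters. Neither a direct repeat of AGGTCA with 1 base between the copies nor one with 4 bases between them was in any of the windows, as in nearly all starts (0.0335% and 0.0152% held them). The letters GAGGAAGT, a core bound by the macrophage factor PU.1, were in none of the 9 genes' windows and in 2.44% of all starts. Such matches are a description of these letters and windows. The windows differed widely in composition. Cxcr4 had 61.2% G and C with 19 CG pairs, while Ccr2, Fpr1 and Fpr2 had 37.2%, 38.4% and 38.8% G and C and at most 1 CG pair, against medians of 52.4% and 6 over all starts.

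Ccr2, the receptor of CCL2, was the receptor gene of the 9 that fell. Its level was 11.1, 10.2 and 10.6 CPM in WT replicates 1, 2 and 3, and 6.69, 8.1 and 6.68 CPM in RXRKO replicates 1, 2 and 3. All RXRKO libraries lay below all WT libraries. The mean went from 10.6 ± 0.464 to 7.16 ± 0.815 CPM (SD, n = 3), 0.675 of the WT level (-0.57 on the log2 scale, SE 0.147, edgeR adjusted p = 0.0166). The call was lost without WT replicate 1 (log2 fold change -0.54, adjusted p = 0.0671) and without RXRKO replicate 1 (-0.52, adjusted p = 0.0789). The gene (ENSMUSG00000049103) lies on chromosome 9 from 124101950 to 124113557 in GRCm38.

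Of the 6734 words of 75 bases, the read length the sequencing kit allows, in Ccr2 transcripts, 1.16% also occur in transcripts of another gene, and reads there cannot be placed by sequence.

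Ccr1, the receptor of CCL3, CCL5 and related chemokines, lies on chromosome 9 as well (123962124 to 123968692). Its level was 24.2, 18.8 and 18.7 CPM in WT and 17.4, 18.8 and 12.5 CPM in RXRKO. The groups overlapped, with WT replicate 1 high and RXRKO replicate 3 low. The means were 20.6 ± 3.13 and 16.2 ± 3.31 CPM, and the log2 fold change of -0.33 (95% interval -0.68 to 0.015) did not pass the test (edgeR adjusted p = 0.172).

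Cx3cr1, the fractalkine receptor gene, was at 4.05, 4.43 and 4.38 CPM in WT replicates 1, 2 and 3 and at 6.86, 7.07 and 5.54 CPM in RXRKO replicates 1, 2 and 3. The groups did not overlap, and the WT libraries were close to each other. The mean rose 1.52-fold, from 4.29 ± 0.209 to 6.49 ± 0.828 CPM (0.60 on the log2 scale, SE 0.179, edgeR adjusted p = 0.0335). The size is that of Ptafr on far fewer counts, 140 in WT and 398 in RXRKO. Leaving out any library except RXRKO replicate 3 ended the call, with adjusted p-values of 0.116, 0.0604 and 0.0651 without WT replicates 1, 2 and 3, and of 0.117 and 0.13 without RXRKO replicates 1 and 2. It was also lost with DESeq2 (adjusted p = 0.0997) and limma-voom (0.0507). Its exons (ENSMUSG00000052336, chromosome 9, 119901616 to 120069879, minus strand) overlap an antisense gene by 78 bases, and the sources used here do not say whether counting used strand.

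Cxcr4, the CXCL12 receptor gene, lies on chromosome 1 from 128588199 to 128592293, on the minus strand. Its level was 77.4, 62.7 and 78.7 CPM in WT and 62.3, 72.8 and 50.9 CPM in RXRKO. The groups overlapped. The means of 72.9 ± 8.86 and 62 ± 10.9 CPM gave a log2 fold change of -0.24 (95% interval -0.52 to 0.042, edgeR adjusted p = 0.226), so a fall of up to 0.52 on the log2 scale lies within the interval.

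Cxcr2, the receptor of CXCL1 and CXCL2, was close to the lower limit of what these libraries measure. It had 7, 10 and 12 counts in WT replicates 1, 2 and 3 and 44, 44 and 36 counts in RXRKO replicates 1, 2 and 3. As CPM these were 0.726, 1.3 and 0.784 in WT and 2.56, 1.75 and 1.96 in RXRKO, without overlap. The mean rose from 0.938 ± 0.318 to 2.09 ± 0.422 CPM, a log2 fold change of 1.19 with a wide 95% interval of 0.43 to 1.95 (SE 0.35, edgeR adjusted p = 0.031). The call was lost without WT replicate 1 (adjusted p = 0.128), WT replicate 3 (0.104) or RXRKO replicate 1 (0.128), with DESeq2 (0.0883), and when all libraries were thinned to the smallest total (log2 fold change 0.87, adjusted p = 0.121). About 1.81% of its words of 75 bases also occur in transcripts of other genes. The gene lies on chromosome 1 from 74153989 to 74161246, on the plus strand.

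Cxcr2 is a neutrophil gene by textbook knowledge, and neutrophil marker genes were present in both groups. The summed level of 14 such markers ranged from 1265 to 1411 CPM in WT and from 1181 to 1340 CPM in RXRKO, with none at 0 in all libraries. Among the 14 there were 2 that rose, 4 that fell and 8 that missed the threshold, against 9.77% rising and 9.61% falling among all tested genes. Camp also encodes a ligand of formyl peptide receptors. Csf3r, the G-CSF receptor gene (48 ± 8.99 to 81.2 ± 9.23 CPM), and the collagenase gene Mmp8 (45.8 ± 9.16 to 70.2 ± 13.3 CPM) rose, while the primary granule genes Mpo (54.3 ± 2.9 to 29.5 ± 1.81 CPM) and Elane (29.8 ± 5.33 to 13.9 ± 1.9 CPM) fell. The rise of Mmp8 was lost without RXRKO replicate 1 or 2 (adjusted p = 0.0595 and 0.0587). Ngp, with the highest mean CPM of the list over all libraries (not corrected for length), fell from 377 ± 19.3 to 313 ± 24.5 CPM (edgeR adjusted p = 0.04), a call that stood without WT replicate 3 and ended without any of the other libraries (0.0598 to 0.151). The Ngp call ended as well without a filter on low counts, with the replicate number as a block, and after thinning to the smallest total. Ly6g, a surface marker of mature neutrophils, stood at 0.859 and 0.927 CPM. The part of such cells in the Cxcr2 difference was not tested, and in bulk RNA fewer cells of a type and less RNA per cell cannot be told apart.

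Ccrl2, on chromosome 9 from 111054486 to 111057519, encodes a receptor-like protein that binds the attractant chemerin without signalling in the usual way. It stood at 7.89, 8.35 and 10.1 CPM in WT and at 10.4, 10.8 and 9.45 CPM in RXRKO. The groups overlapped through WT replicate 3. The log2 fold change was 0.20 (95% interval -0.12 to 0.52, edgeR adjusted p = 0.377). Cmklr1, the signalling receptor of chemerin, rose from 33.1 ± 3.56 to 43.9 ± 1.23 CPM, by 0.41 on the log2 scale (edgeR adjusted p = 0.0138), a call lost without WT replicate 1 (0.32, adjusted p = 0.0712) or RXRKO replicate 1 (0.40, adjusted p = 0.0653). The chemerin gene Rarres2 had no count in any library.

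The formyl peptide receptor genes lie beside each other on chromosome 17, about 16.1 Mb from the altered Rxrb locus. Fpr1 (17876471 to 17883940) had between 7 and 34 counts per library and stood at 1.25, 0.913 and 2.22 CPM in WT and at 1.34, 1.27 and 0.706 CPM in RXRKO. The groups overlapped, and WT replicate 3 was the highest library. Its log2 fold change of -0.48 had a 95% interval from -1.34 to 0.37 (edgeR adjusted p = 0.43), and without WT replicate 3 it turned to 0.019 (adjusted p = 0.983).

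Fpr2 (17887824 to 17893952) stood at 3.94, 3.78 and 3.4 CPM in WT and at 5.99, 4.96 and 4.07 CPM in RXRKO. Every RXRKO library lay above every WT library, by a narrow margin for RXRKO replicate 3. The difference did not pass the test (log2 fold change 0.44, 95% interval -0.009 to 0.89, edgeR adjusted p = 0.162). About 20.9% of the words of 75 bases in Fpr2 also occur in Fpr3 or a related gene model, and Fpr3 had no count in any library, so the Fpr2 level is uncertain to that extent. The receptor-like genes Fpr-rs3, Fpr-rs4, Fpr-rs6 and Fpr-rs7 had no count either.

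**Figure D2:**
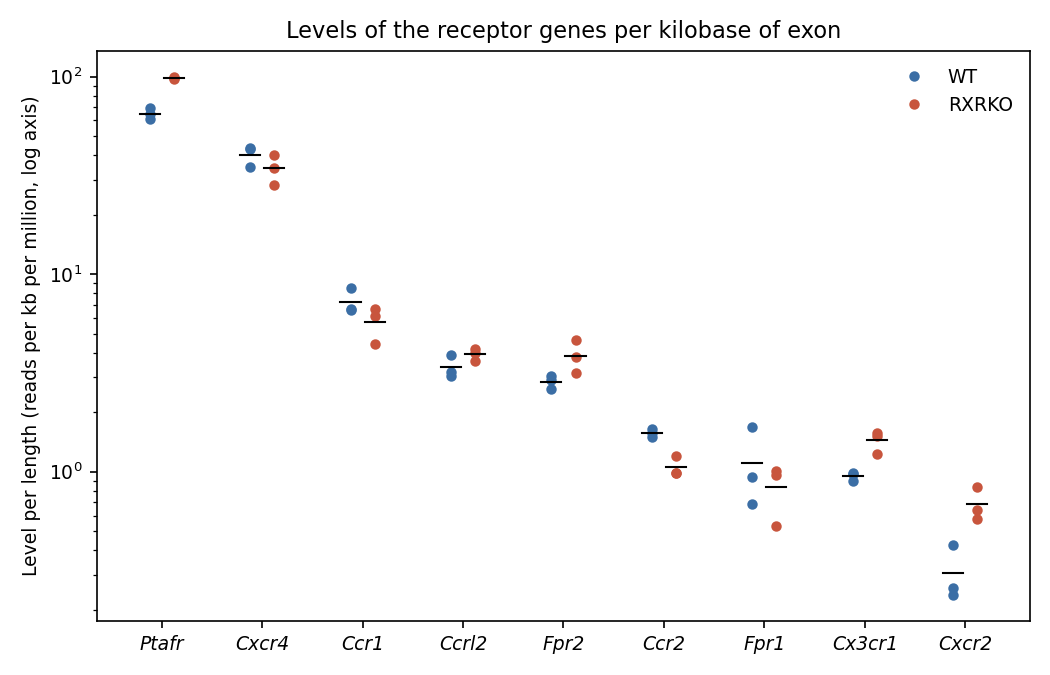
Levels of the 9 receptor genes in RPKM (log axis), by gene in the order of the WT means, with 1 point per library for WT (blue) and RXRKO (red) and the mean as a line. Ptafr and Cxcr4 lie well above the other genes in both genotypes. By this per-length measure, which depends on the exon lengths used, Cx3cr1 lies below Ccr2 in WT and above it in RXRKO.

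Levels of the 9 receptor genes were compared with each other per length, as RPKM, the TMM-scaled CPM divided by the kilobases of exon. In WT the order was Ptafr (65.1 ± 3.94), Cxcr4 (40.3 ± 4.9), Ccr1 (7.26 ± 1.1), Ccrl2 (3.38 ± 0.455), Fpr2 (2.86 ± 0.217), Ccr2 (1.57 ± 0.0687), Fpr1 (1.1 ± 0.513), Cx3cr1 (0.951 ± 0.0464) and Cxcr2 (0.308 ± 0.104). Libraries overlapped between Ccrl2 and Fpr2, between Ccr2 and Fpr1, and between Fpr1 and Cx3cr1, so these neighbours did not differ beyond their spread. In RXRKO Cx3cr1 (1.44 ± 0.184) stood above Ccr2 (1.06 ± 0.121), with no overlap between their libraries, whereas in WT every Ccr2 library stood above every Cx3cr1 library. The order in RXRKO rests on the exon lengths used, 6760 bases for Ccr2 and 4505 for Cx3cr1, and the SDs do not cover error in these lengths. Before division by length, Ccr2 had the higher RXRKO mean (7.16 against 6.49 CPM), and their RXRKO libraries overlapped. The means of the other 7 genes kept their order relative to each other. In RXRKO, libraries overlapped between Ccrl2 and Fpr2, between Ccr2 and Fpr1, and between Fpr1 and Cxcr2, so the order of these neighbours was not resolved there. Ptafr held between 50.1% and 57.5% of the summed per-length level of the 9 genes in WT libraries and between 62.8% and 69.5% in RXRKO libraries. Cxcr4 held between 28.9% and 35% in WT and between 20.1% and 25.3% in RXRKO.

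**Figure D3:**
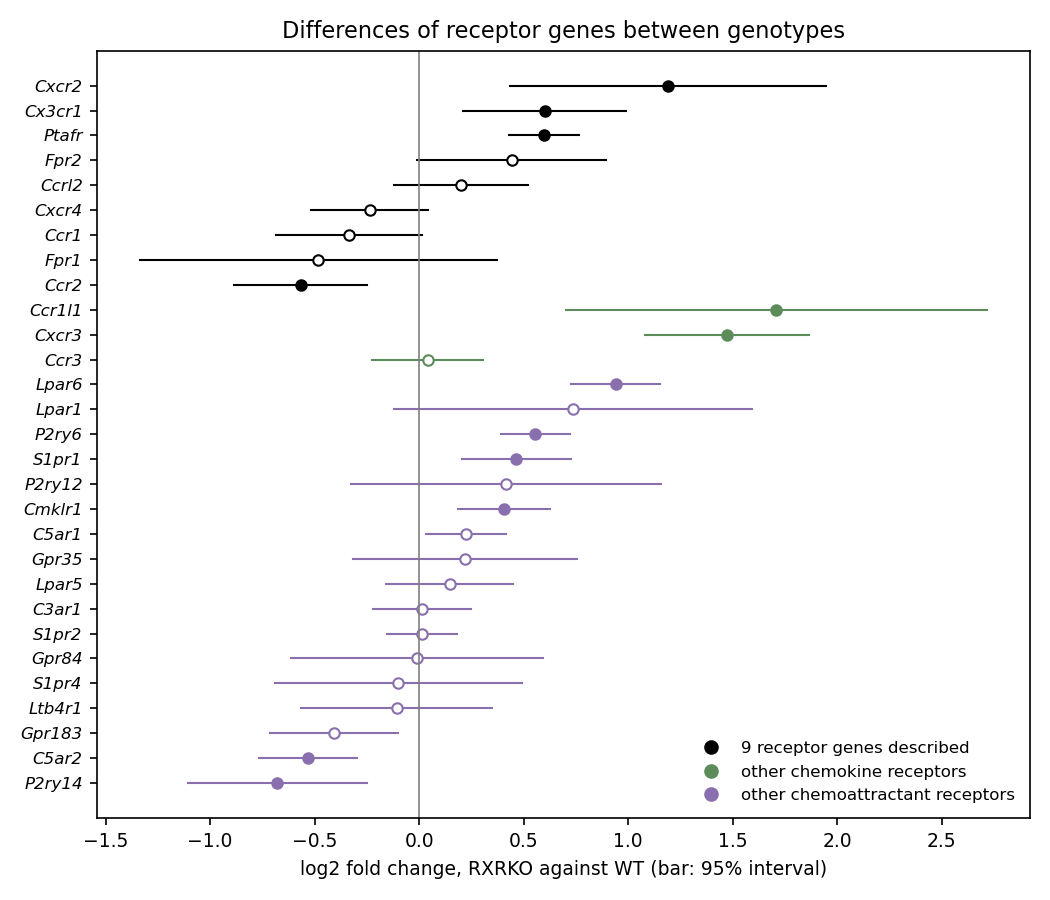
Log2 fold change of RXRKO against WT with its 95% interval for the 9 receptor genes (black) and for the genes described among other chemokine receptors (green) and other chemoattractant receptors (purple). Filled points passed the test, with Cxcr3 and Lpar6 among those above 0 and Ccr2 and C5ar2 among those below 0.

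Most other chemokine receptor genes had too few counts for a test, and 2 of them, Ackr2 and Ackr3, had no count at all. Cxcr3, the receptor of the interferon-induced chemokines CXCL9 and CXCL10, rose from 3.14 ± 0.367 to 8.89 ± 0.979 CPM, by 1.48 on the log2 scale (SE 0.181, edgeR adjusted p = 0.000113). It is X-linked, and RXRKO libraries alone held Xist. Ccr1l1, a gene similar to Ccr1, rose on 11 and 68 counts (log2 fold change 1.71, adjusted p = 0.0218), which failed on leaving out any library except RXRKO replicate 3, with adjusted p-values from 0.0545 to 0.0773. With DESeq2 and with the replicate number as a block Ccr1l1 did not pass either. Its WT libraries, at 0.415, 0.13 and 0.392 CPM, were all under the filter level of 0.621 CPM, so it was tested only because it was higher in RXRKO. Ccr3, the eotaxin receptor gene, stood at 25 ± 2.03 and 25.7 ± 3.42 CPM (95% interval of the log2 fold change -0.22 to 0.31). Along the chromosome 9 cluster the genes Ccr1, Ccr1l1, Ccr3 and Ccr2 had log2 fold changes of -0.33, 1.71, 0.042 and -0.57, so these 4 did not share a direction.

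Of 29 other chemoattractant receptor genes, 28 were in the table and 17 were tested. Of these 4 rose, 2 fell and 11 missed the threshold, while 9.77% of all tested genes rose and 9.61% fell. The median of the 17 was 0.15 on the log2 scale. Lpar6, a receptor of lysophosphatidic acid, rose from 43.7 ± 3.17 to 84 ± 7.79 CPM (0.94, SE 0.0989), and P2ry6, the receptor of UDP released by injured cells, rose from 182 ± 8.68 to 268 ± 3.83 CPM (0.56, SE 0.0759). C5ar2, the second receptor of complement fragment C5a, fell from 26.4 ± 1.77 to 18.3 ± 0.972 CPM (-0.53, SE 0.108). These 3 calls held in every alternative (largest adjusted p = 0.0267). P2ry14, the receptor of UDP-glucose, fell (-0.68, adjusted p = 0.0297), but its groups overlapped. The call was lost without WT replicate 1 (adjusted p = 0.153), WT replicate 3 (0.0981), RXRKO replicate 2 (0.0515) or RXRKO replicate 3 (0.0652). It was lost as well with limma on the authors' normalized values, with the replicate number as a block, and after thinning to the smallest total. The highly expressed complement receptor genes C3ar1 (1069 and 1080 CPM) and C5ar1 (591 and 691 CPM), chosen after their values were seen, did not pass. For C3ar1 the genotypes overlapped. For C5ar1 every RXRKO library lay above every WT library (log2 fold change 0.22, 95% interval 0.035 to 0.41, edgeR adjusted p = 0.0932). Of the other chemoattractant receptor genes, 2 rose without RXRKO replicate 1. The number that fell was 1 without WT replicate 1, WT replicate 3 or RXRKO replicate 3, and 3 without WT replicate 2.

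**Figure D4:**
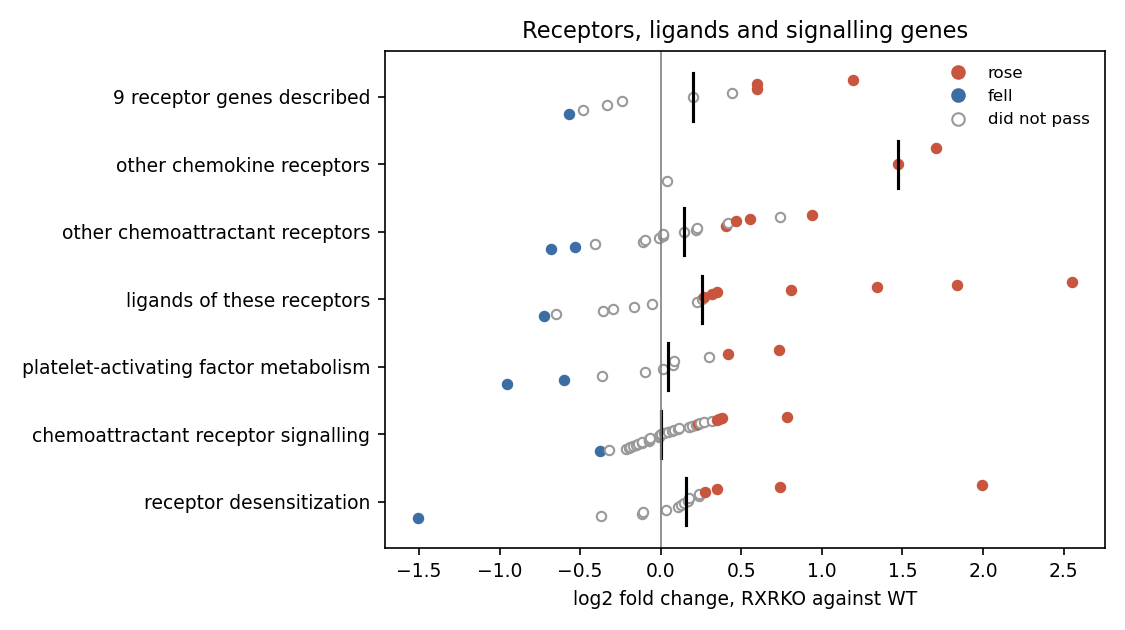
Log2 fold change of RXRKO against WT for the tested genes of 7 groups, with genes that rose in red, genes that fell in blue, genes that did not pass as open points, and the group's median as a black line. The highest value, 2.55, is that of Ccl7, which passed the low-count filter only through its RXRKO libraries, while most signalling genes lie close to 0.

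Several genes for ligands of these receptors rose. Among 23 ligand genes 15 were tested, and 7 of these rose, 1 fell and 7 missed the threshold. Over all tested genes 9.77% rose and 9.61% fell. The 15 ligand genes had a median of 0.26 on the log2 scale. Ccl2, the ligand of Ccr2, rose from 4.76 ± 0.561 to 16.8 ± 0.876 CPM, by 1.84 on the log2 scale (SE 0.147), in the same libraries in which Ccr2 fell. Ccl7, a second CCR2 ligand gene, chosen after its values were seen, stood at 0.477 and 2.6 CPM on 14 and 158 counts (2.55, SE 0.372). Of its WT libraries 2 were under the filter level, so it entered the test through RXRKO. Ccl4 rose from 29.3 ± 2.75 to 73.9 ± 1.44 CPM (1.34, SE 0.0962) and Ccl3 from 41.7 ± 3.51 to 73.3 ± 7.93 CPM (0.81, SE 0.105). CCL3 is a ligand of CCR1. Mif, a cytokine that also binds CXCR2 and CXCR4, fell from 77 ± 12.7 to 46.6 ± 7.98 CPM (-0.72, SE 0.138). The chemokine ligand genes of Cx3cr1 and Cxcr4 had few counts. Cx3cl1 had 43 counts in WT and 69 in RXRKO and did not pass (-0.17, edgeR adjusted p = 0.803). Cxcl12 had 9 and 16 counts, too few for a test.

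Platelet-activating factor is made by remodelling of membrane phospholipid and is broken down by acetylhydrolases, and all 10 genes of this group were tested. There were 2 that rose, 2 that fell and 6 that missed the threshold (median 0.046 on the log2 scale). Of all tested genes 9.77% rose and 9.61% fell. Pla2g7, the secreted acetylhydrolase that inactivates the ligand of Ptafr, rose with Ptafr, from 564 ± 39.4 to 937 ± 12.1 CPM, by 0.73 on the log2 scale (SE 0.0789, edgeR adjusted p = 3.78e-05). Lpcat2, the enzyme of the last step of synthesis in activated macrophages, rose from 42.5 ± 3.64 to 56.8 ± 3.17 CPM (0.42, adjusted p = 0.0083), a call lost without WT replicate 1 (adjusted p = 0.0554) or RXRKO replicate 1 (0.0594). Pla2g4a, the cytosolic phospholipase that releases the lyso precursor, fell from 50.2 ± 1.4 to 33.1 ± 2.39 CPM (-0.60, adjusted p = 0.000721). Lpcat3, an acyltransferase of phospholipid remodelling, fell from 58.5 ± 2.9 to 30.2 ± 3.42 CPM (-0.96, adjusted p = 4.03e-05). The number that rose was 1 without WT replicate 1 or RXRKO replicate 1. Pla2g7 lies on chromosome 17, the chromosome of Rxrb.

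Of genes for downstream signalling, the share that changed was close to that among all tested genes, 19.4%. The 35 tested genes for G proteins, phospholipase C, PI3 kinases, Rac activators and other signalling proteins held 5 rising and 1 falling gene, and 29 missed the threshold (median 0.0038 on the log2 scale). Tiam1, an exchange factor of Rac, rose from 40.6 ± 4.56 to 69.6 ± 3.82 CPM (0.78, SE 0.1), and Gna12, a G protein alpha subunit, fell from 240 ± 7.37 to 185 ± 5.49 CPM (-0.38, SE 0.0748). The Rac activators Prex1 (0.38) and Dock2 (0.36) rose by less. Prex1 lost its call without WT replicate 1 (adjusted p = 0.0583) or RXRKO replicate 1 (0.056), and Dock2 without RXRKO replicate 1 (0.0575) or 2 (0.0609). The number that rose was 2 without WT replicate 1 or RXRKO replicate 2, and 1 without RXRKO replicate 1, while 2 fell without WT replicate 3. Gnai2, the main inhibitory alpha subunit that these receptors use, chosen after its values were seen, stood at 1021 ± 44.2 and 970 ± 5.58 CPM.

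The 16 tested genes whose products switch such receptors off held 4 rising and 1 falling gene, and 11 missed the threshold (median 0.16 on the log2 scale). Rising genes were 9.77% and falling genes 9.61% of all tested genes. Rgs2, a regulator of G protein signalling, rose from 218 ± 24.1 to 365 ± 11.3 CPM (0.74, SE 0.0906), and Rgs16 rose from 0.988 ± 0.596 to 3.94 ± 0.408 CPM on 32 and 243 counts (2.0, SE 0.329), with 1 WT library under the filter level. Grk3, a kinase that marks active receptors for arrestin binding, fell from 20.4 ± 3.15 to 7.23 ± 0.64 CPM (-1.51, SE 0.145). Its close relative Grk2, chosen after its values were seen, stood at 355 ± 14.3 and 363 ± 6.54 CPM. Rgs14 also rose (0.35), a call lost without WT replicate 1 (adjusted p = 0.0662) or RXRKO replicate 1 (0.0624). The number that rose was 2 without either of these libraries, and 2 fell without WT replicate 2.

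Monocyte marker genes were read beside Ccr2 and Cx3cr1. Their summed level over 9 genes ranged from 192 to 222 CPM in WT and from 175 to 217 CPM in RXRKO. Among the 7 that could be tested, 1 rose, 3 fell and 3 missed the threshold, against 9.77% rising and 9.61% falling among all tested genes. Ly6c2, a marker of classical monocytes like Ccr2, fell from 14 ± 2.39 to 8.73 ± 2.05 CPM (-0.69, adjusted p = 0.0209), a call lost without WT replicate 1 (adjusted p = 0.106) or WT replicate 3 (0.073). Treml4, a marker of nonclassical monocytes, fell from 4.08 ± 0.706 to 1.88 ± 0.156 CPM (-1.13, adjusted p = 0.0051). Treml4 lies on chromosome 17, the chromosome of Rxrb. F13a1, of classical monocytes, rose (0.36, adjusted p = 0.025), a call lost without WT replicate 1 or 2 or RXRKO replicate 1 or 2 (adjusted p from 0.058 to 0.124). The F13a1 call also ended after thinning to the smallest total and with the replicate number as a block. Chil3, with the highest mean CPM of the list, stood at 145 ± 12.7 and 143 ± 21.1 CPM. The number that fell was 1 without WT replicate 1 or WT replicate 3. The part of monocyte-like cells in the Ccr2 and Cx3cr1 differences was not tested.

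Markers of other cells that carry such receptors were low. The summed level of 9 dendritic cell markers was between 1.25 and 3.42 CPM in all libraries, that of 8 mast cell and basophil markers between 3 and 4.4 CPM, and none of these genes passed the edgeR test, for which 2 mast cell genes and no dendritic cell gene had enough counts. Cd7 and Mcpt4 had no count in any library. The 9 lymphocyte markers summed to between 5.74 and 7.78 CPM in WT and between 2.66 and 4.25 CPM in RXRKO. Of these Cd79b fell from 5.25 ± 0.599 to 1.7 ± 0.247 CPM. The T cell gene Cd3e, a marker of cells known for Cxcr3, had 2 counts over the WT libraries and 12 over the deeper RXRKO libraries. Scaled for depth, its mean was 0.0435 CPM against 0.215 CPM, and the groups overlapped. For Cd3g, also a T cell gene, there were 1 and 2 counts, or 0.0435 and 0.0362 CPM, again with overlap. Neither gene had enough counts for a test, and the part of T cells in the Cxcr3 difference was not tested. The 8 fibroblast markers summed to between 12.7 and 16 CPM in WT and between 6.23 and 12.3 CPM in RXRKO. Col3a1 (2.47 ± 0.844 to 0.668 ± 0.218 CPM) and Fn1 (3.48 ± 0.852 to 1.74 ± 0.0497 CPM) fell, Col3a1 having entered the test through its WT libraries, and Col1a1, with the highest mean CPM of the list, stood at 3.85 ± 0.966 and 3.14 ± 2.48 CPM. The number of these genes that fell was 1 without WT replicate 1, WT replicate 3 or RXRKO replicate 1.

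The genes whose levels over the 6 libraries were most like those of Ptafr, among 9867 genes with an average log2 CPM of at least 2, were Treml1 (Pearson r = 0.999), Apobec1 (0.999) and Apbb2 (0.996). For Ccr2 they were Ncapg2 (0.997), Sept11 (0.997) and Hdhd2 (0.995). The 6 libraries fall into 2 genotypes that differ in these genes, so the values describe a shared step between groups of 3 and carry no test. Treml1 went from 2.76 ± 0.489 to 12.1 ± 0.357 CPM, and Ncapg2 from 74.2 ± 1.86 to 56 ± 3.31 CPM.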

How the data were processed

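Poly(A) RNA libraries (NEBNext Ultra II, 100 ng RNA) were sequenced single-end (75-cycle kit), as the labels' protocols say. TopHat2 2.0.7, DESeq and the builds mm10 and GRCm38 are named in the submitters' processing notes. For the counting program, annotation and strand setting: not given in the sources used here. The authors deposited raw counts per Ensembl gene, which were tested here, and a table of log2 values normalized per library, used as an alternative.

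Counts were filtered with filterByExpr (minimum count 10, minimum total 15), scaled by TMM and tested by genotype with edgeR 4.0.16 (R 4.3.3, robust quasi-likelihood). P-values were adjusted by Benjamini-Hochberg over all 12011 tested genes with a threshold of 0.05. SEs were obtained by dividing each absolute effect by the square root of its F statistic. CPM floors cover counting error only: 3 counts equal 0.119 to 0.391 CPM. Symbols matched 45106 of 45193 identifiers. Lengths and positions came from GENCODE M21 (GRCm38). The fit was tested on simulated data.

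The receptor genes and the gene lists were chosen with earlier results of these data known. From each other list, the rule for naming took at most 3 rising and 3 falling genes, ranked by adjusted p (2 and 2, plus the one of highest mean CPM, for cell type markers), and the 3 genes most like each of the 2 members of smallest adjusted p. Further genes are named outside this rule, among them Adgre1, Ly6g, Cd3e, Cd3g, Ccr3, Cx3cl1, Cxcl12, Rarres2 and those said to be chosen after their values were seen. Alternatives were RLE and upper-quartile factors, no filter, a CPM filter, DESeq2 1.42.0, limma-voom (limma 3.58.1), limma on the authors' values as log2(value + 1), the replicate number as a block, thinning to 7880320 counts, leaving out Lyz2, and leaving out each library. One gene among the other chemokine receptors is not reported here and is not plotted.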

Additional observations from a re-analysis of the deposited data

How the results depend on the processing

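Of the receptor genes, 3 rose and 1 fell in the main analysis. The number that rose was 1 with DESeq2 and 1 with the replicate number as a block, and between 1 and 3 with each library left out in turn. The number that fell was 0 with the block and 0 or 1 with each library left out. The count of all changed genes, 2327, was 1375 with the block and between 1286 and 2607 with each library left out. The block has no support from the data. Same-numbered libraries deviated from their group means with correlations of 0.053, -0.275 and -0.259, which give no sign of pairing by number. No library correlated best with its own number. Under the block Ptafr passed, and Ccr2 (adjusted p = 0.0574), Cx3cr1 (0.103) and Cxcr2 (0.0843) did not. Beyond the receptor genes described, the block also ended the calls of Ccr1l1, Cmklr1, P2ry14, Dock2, Rgs14, F13a1, Ly6c2, Ngp and Fn1. The cause was not tested.

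With each library left out, log2 fold changes ran from -0.69 to 0.019 for Fpr1, from -0.094 to 0.098 for Chil3 and from -1.23 to 0.037 for Col1a1. They turned positive for Fpr1 without WT replicate 3, for Chil3 without WT replicate 1 (0.043) or RXRKO replicate 3, and for Col1a1 without RXRKO replicate 2. None of the 3 genes passed in the main analysis, and Col1a1 passed without RXRKO replicate 3 (adjusted p = 0.0139). Normalization by RLE or upper-quartile factors moved the median of all genes by less than 0.003 and changed no call among the 9 receptor genes. Fpr1 gave no value after thinning, where its counts fell below the filter. Depth limits Cxcr2 and Fpr1, with 29 and 53 counts over the WT libraries.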
